A study of Rattus norvegicus with 6 samples.

Results

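The 36 genes described here are those of glycolysis and of the response to low oxygen: 19 glycolytic enzymes, 4 glucose and lactate transporters, 5 regulatory kinases, and 8 genes of the hypoxia-inducible factor (HIF) system and its targets. They were taken by name from a table of 22050 annotated rat genes, and each name had exactly 1 row. The table holds 6 RNA-seq libraries of rat subchondral bone, the bone beneath joint cartilage, with the titles S10, S12 and S13 and then S20, S21 and finally S23. Where 6 values of a gene are listed, they follow that order. The series set out to compare rats at low and normal temperature. The labels name only the tissue and its cells for each library and give no temperature, strain, age or sex, so every library was kept without a group, no effect of cold was tested, and differences between libraries have no replicate check. The sources used here do not say if each library is a different rat.

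Glycolysis splits glucose into pyruvate and yields ATP without oxygen. Lactate dehydrogenase then turns pyruvate into lactate, which leaves the cell through monocarboxylate transporters. HIF-1 is a transcription factor whose alpha subunit is hydroxylated by prolyl hydroxylases and degraded when oxygen is plentiful. When oxygen falls the subunit persists and raises the genes of most glycolytic enzymes, of glucose uptake and of vessel growth. Red cells and neutrophils, both made in the marrow that fills bone, draw most of their ATP from glycolysis, and osteoblasts also use it heavily.

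The libraries held 39990624 to 59200981 counts each. FPKM divides the fragments of a gene by its transcript length and by the size of the library. S10 stood apart from the rest: the median expressed gene (median of at least 1 FPKM over the libraries) lay 0.31 log2 units under its own median there, against deviations of -0.03 to 0.14 in the other 5 libraries. Globin rows took 27.6% of the counts in S10, 10.4% in S23 and 18.9% to 20.8% in the others. TMM scaling (trimmed mean of M-values, which sets the bulk of genes level between libraries) brought the same deviations to between -0.03 and 0.01. TMM-scaled FPKM are given beside the deposited FPKM for part of the results. Where no scaling is named, values and library orders are those of the deposited FPKM, and the order can differ with TMM scaling. Pgk1, Pdk1 and Ankrd37 were then highest in S10, and Egln3 and Ndrg1 lowest in S12. The hexokinase and phosphofructokinase sums were then highest in S21. Of the osteoblast markers, led by Spp1 and Bglap (osteopontin and osteocalcin), all 12 reached a median of 1 FPKM. Marrow markers were present as well: 12 of 13 erythroid genes had a row and all 12 reached 1 FPKM, as did 13 of 14 neutrophil genes. In bulk tissue, fewer cells of a type and less RNA per cell cannot be told apart.

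Upstream sequence bears on how these genes are tied to HIF, which binds DNA at the core letters ACGTG or GCGTG. The 250 bases before the annotated start were read from RefSeq (build GRCr8) for 33 of the 36 members. Both cores were searched on both strands, and matches that overlap each other were counted as 1 site. At least 1 site was found in 23 of 38 member windows (60.5%), against 36.7% of all 33469 windows of this length. Among the HIF genes with a window, Hif1a, Bnip3, Egln1 and Ankrd37 had a site, while Vegfa, Adm and Egln3 had 0. Windows with 3 or more sites made up 7 of the 38 member windows (18.4%) and 4.17% of all windows. Base composition was not matched, and a match is a description of letters, not evidence of binding. The 7 windows belong to Aldoc, Gapdh, Ldha, Slc2a1, Pdk3, Bnip3 and Ankrd37. Those of an enzyme, a transporter, a regulatory kinase and a HIF target are printed to show such windows for each role, a choice made after the values were seen. They lie at chr1:106507842-106508091 (plus strand) for Ldha, chr5:138002272-138002521 (plus strand) for Slc2a1, chrX:62547372-62547621 (minus strand) for Pdk3 and chr1:203154963-203155212 (minus strand) for Bnip3. Each is written 5′ to 3′ on the strand of the gene, with the core matches of either strand in capitals.
Ldha: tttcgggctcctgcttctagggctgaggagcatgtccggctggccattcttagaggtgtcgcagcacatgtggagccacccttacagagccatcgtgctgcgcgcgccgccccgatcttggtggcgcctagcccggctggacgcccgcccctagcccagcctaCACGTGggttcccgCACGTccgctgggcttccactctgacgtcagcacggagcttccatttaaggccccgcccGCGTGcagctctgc
Slc2a1: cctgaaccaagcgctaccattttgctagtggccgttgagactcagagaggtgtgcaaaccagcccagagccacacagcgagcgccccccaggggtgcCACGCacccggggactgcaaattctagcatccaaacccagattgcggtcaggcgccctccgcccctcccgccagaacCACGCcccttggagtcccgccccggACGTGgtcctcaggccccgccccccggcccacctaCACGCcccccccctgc
Pdk3: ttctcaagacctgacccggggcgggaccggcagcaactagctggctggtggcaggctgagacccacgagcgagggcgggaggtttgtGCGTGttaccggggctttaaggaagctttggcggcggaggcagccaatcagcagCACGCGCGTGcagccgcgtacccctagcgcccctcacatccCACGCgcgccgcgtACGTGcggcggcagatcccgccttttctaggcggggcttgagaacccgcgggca
Bnip3: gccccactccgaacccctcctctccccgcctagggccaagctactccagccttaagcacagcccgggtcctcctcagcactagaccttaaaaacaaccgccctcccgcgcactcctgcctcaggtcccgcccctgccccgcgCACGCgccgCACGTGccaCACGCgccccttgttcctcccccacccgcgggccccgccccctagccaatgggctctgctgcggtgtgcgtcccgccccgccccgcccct

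The enzymes of lower glycolysis were among the most abundant transcripts of the bone. By median FPKM, 35 of the 36 members reached 1 FPKM, against 52.7% of all annotated genes, and 12 members lay above the 90th percentile of annotated genes. Their median level was 4.33 on the log2(FPKM + 1) scale, beside 3.34 for all 11625 expressed genes. Transcript sums per step were lowest for phosphofructokinase, triosephosphate isomerase and hexokinase, with medians of 46.8, 62.0 and 93.5 FPKM, and at least 136 FPKM for the other 8 steps. The hexokinase genes Hk1, Hk2 and Hk3, which trap glucose as its phosphate, summed to between 45.2 FPKM in S10 and 106 FPKM in S20. The phosphofructokinase genes Pfkl, Pfkm and Pfkp, which encode the main control point of the pathway, summed to between 32.4 FPKM in S10 and 56.7 FPKM in S20, the smallest sum of the 11 steps in every library but S20. In S20 the smallest was Tpi1, the isomerase that interconverts the triose phosphates, at 39.5 FPKM. The median sums of the pyruvate kinase and lactate dehydrogenase steps were 419 and 417 FPKM.

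**Figure D1:**
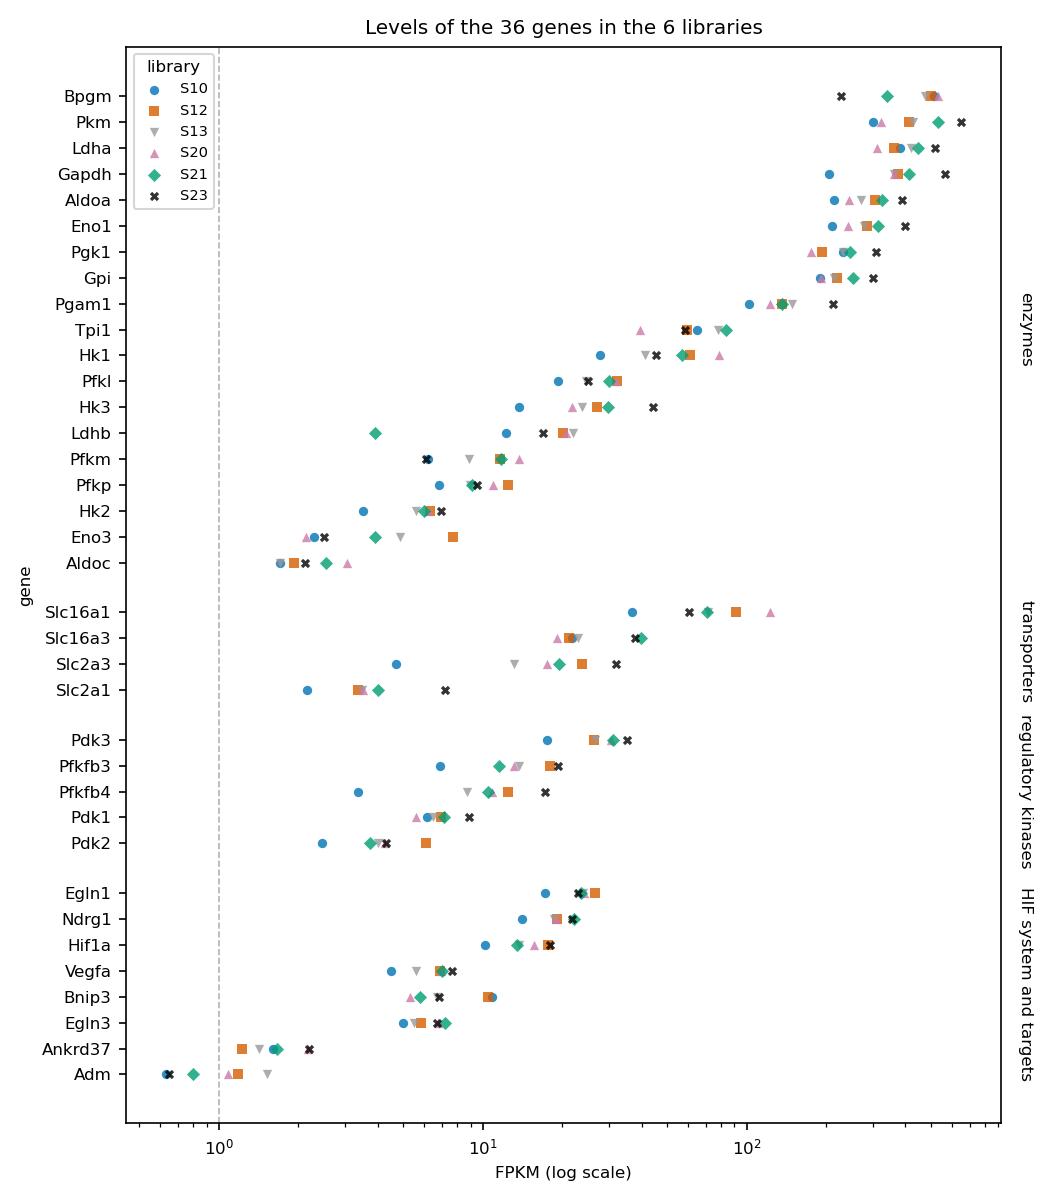
Deposited FPKM (log axis) of the 36 members, 1 row per gene, with 1 symbol per library and genes grouped by role and sorted by median. The dashed line marks 1 FPKM. The spread is widest for Slc2a3, whose S10 symbol (4.69 FPKM) lies far left of the others, and Ldhb, whose S21 symbol (3.91 FPKM) does.

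Among the single-gene steps, Pkm (ENSRNOG00000011329), which encodes the pyruvate kinase that makes pyruvate, had 301, 413, 426, 322, 531 and 649 FPKM from S10 through S23. Gapdh (ENSRNOG00000018630), the dehydrogenase of glyceraldehyde phosphate, had 206, 374, 361, 361, 413 and 564 FPKM in the same order of libraries. Both were thus highest in S23 and lowest in S10. With TMM scaling the order at the top held, but Pkm was then lowest in S20 (286 FPKM) and Gapdh still in S10 (275 FPKM). Gapdh is known for its many processed pseudogenes, and the sources used here do not say how near-identical copies were counted. Within a library the Gapdh to Pgk1 ratio, which a factor common to all genes of a library cannot move, was 0.886 in S10 and 1.56 to 2.07 in the other 5. Pgk1, the phosphoglycerate kinase that makes the first ATP gain, had 232, 193, 231, 175, 246 and 309 FPKM from S10 to S23.

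Gpi, Aldoa, Eno1 and Pgam1 encode an isomerase, an aldolase, an enolase and a mutase of the same route. Their median FPKM were 218, 289, 282 and 136. Each was highest in S23 under all 6 scalings examined, with 302, 387, 398 and 213 FPKM there, and the highest value was 1.60 to 2.09 times the lowest. Ldha, the subunit of lactate dehydrogenase that favours lactate, had a median of 400 FPKM and ranged from 312 FPKM in S20 to 519 FPKM in S23. Under TMM scaling Ldha was highest in S10 (509 FPKM) and S23 followed (472 FPKM). Tpi1 had 39.5 FPKM in S20, 58.5 in S23 and 83.3 in S21. It was lowest in S20 under all 6 scalings, as was Pgk1. The Tpi1 to Gapdh ratio was 0.104 in S23, 0.109 in S20 and 0.315 in S10. In the reference annotation Tpi1 overlaps Spsb2, and the counting is not stated to use strand, so reads of the overlap could not be assigned with certainty. The same holds for the other 11 members that overlap another annotated gene, among them Hk3, Aldoa, Eno3 and Slc16a3.

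Spread over the libraries was described by the range of log2(FPKM + 1), the highest minus the lowest library. Of the 35 expressed members, 17 (48.6%) had a range of at least 1, which is a 2-fold difference on that scale, against 36.6% of all expressed genes. With TMM scaling the count was 12 (34.3%), against 29.6%. The median range of the members was 0.97 and that of all expressed genes 0.83, and with TMM scaling these were 0.86 and 0.73. Without S10 all 36 members reached a median of 1 FPKM and 9 of them had such a range, against 13.5% of annotated genes that reached it. Much of the spread thus rested on S10, for all expressed genes as well as for the members. A total of 7 members kept a range of at least 1 under all 6 scalings (the deposited FPKM, TMM, median ratio, 2 common sums and correction for gene length): Hk3, Bpgm, Eno3, Ldhb, Slc2a3, Slc16a1 and Pfkfb4. Among all expressed genes 14.0% did so. None of the 7 expressed HIF genes passed in the deposited values.

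**Figure D2:**
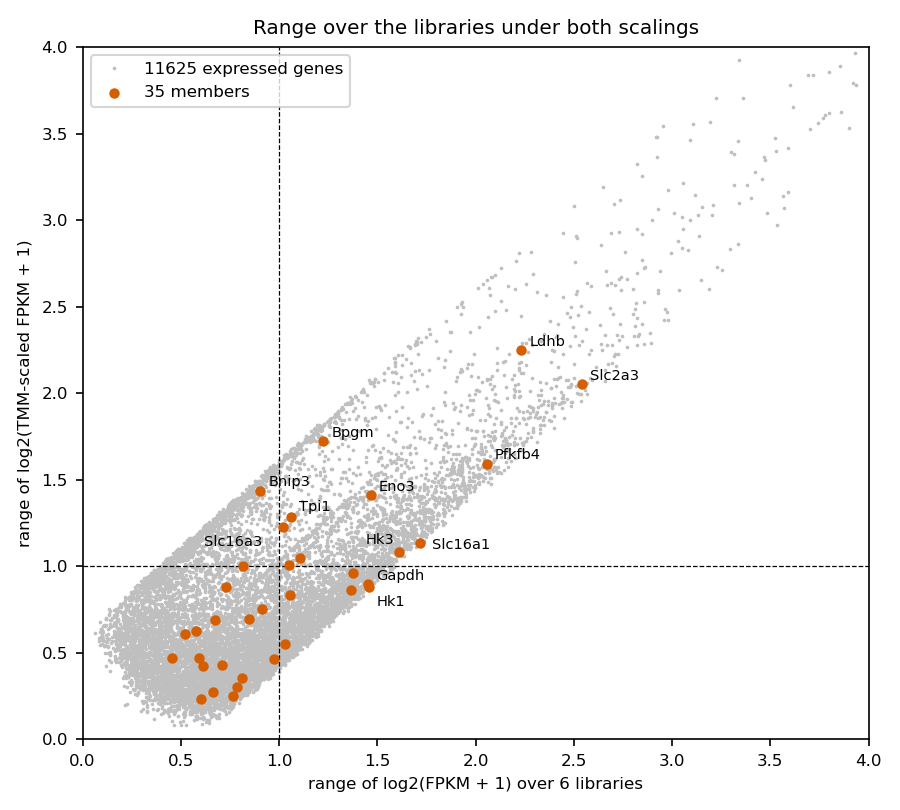
Range of log2(FPKM + 1) over the 6 libraries in the deposited values (horizontal) and after TMM scaling (vertical), for 11625 expressed genes (grey) and 35 members (orange), with dashed lines at 1. Another 58 genes lie beyond the axes. Slc2a3, Ldhb and Pfkfb4 lie farthest to the right of the members, while Bnip3 passes 1 only after TMM scaling.

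The library with the highest value was S23 for 19 of the 35 members (54.3%), against 24.0% of all expressed genes, and for 14 (40.0%) with TMM scaling, against 14.4%. By role, S23 was highest in the deposited values for 10 of 19 enzymes, 2 of 4 transporters, 4 of 5 regulatory kinases and 3 of 7 HIF genes. These counts were 8, 2, 3 and 1 with TMM scaling. S10 was lowest for 23 members (65.7%), against 60.1% of all expressed genes, a share near the background. With TMM scaling S10 was lowest for 11 members (31.4%), against 30.7%, and S20 for 12 (34.3%), against 27.1%. Of these 12, 9 were enzymes. The counts of all 36 members together made up 0.488% of the library in S10 (95% exact binomial interval 0.486% to 0.490%, Clopper-Pearson) and 0.764% in S23 (0.762% to 0.767%), intervals that cover counting error only. With the globin rows removed from the totals the shares were 0.674% in S10 and 0.853% in S23.

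**Figure D3:**
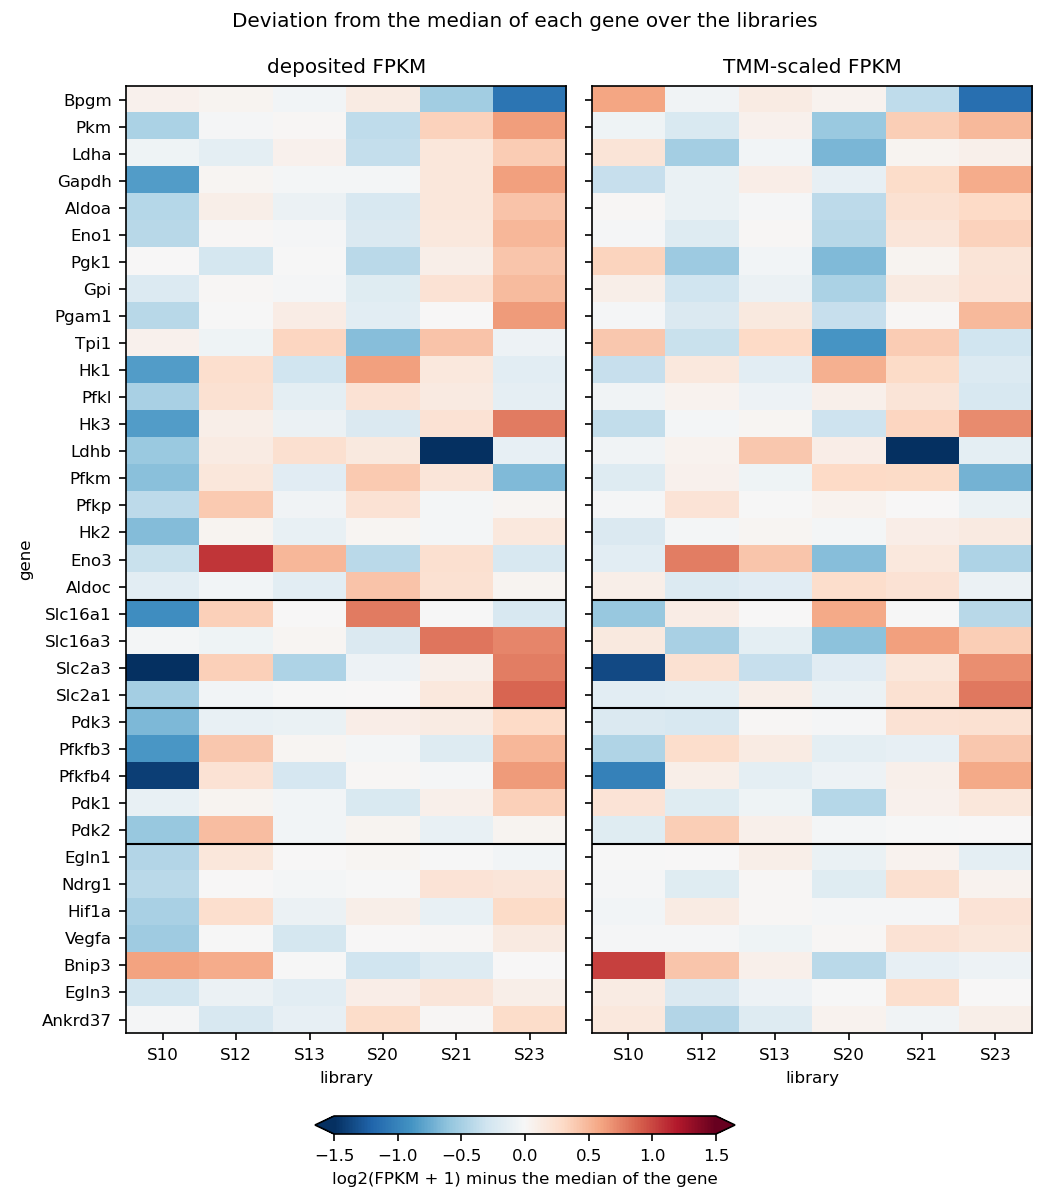
Deviation of log2(FPKM + 1) from the median of each gene over the 6 libraries, for the 35 expressed members, in deposited FPKM (left) and TMM-scaled FPKM (right), with roles separated by lines. The colour scale ends at 1.5 log2 units either way. The S10 column is blue for most genes on the left and mixed on the right, whereas S23 is red for most lower glycolytic enzymes in both.

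The hexokinase genes differed in which library was highest. Hk3 (ENSRNOG00000026235), the hexokinase of granulocytes and other myeloid cells, had 13.8, 27.0, 23.9, 21.8, 29.7 and 44.2 FPKM from S10 through S23. Hk1, the housekeeping form that also serves red cells, had 27.9, 61.0, 41.3, 78.4, 57.0 and 45.4 FPKM in the same libraries. Hk3 was highest in S23 and Hk1 in S20 under all 6 scalings. As a share of the summed hexokinase FPKM, Hk3 took 20.5% in S20 and 45.8% in S23, and Hk1 took 73.7% in S20 and 47.0% in S23. The remaining 4 libraries had Hk3 shares of 28.7% to 33.7%. Hk2, the insulin- and HIF-responsive form, stayed at 5.85% to 7.91% of the sum in all 6 libraries. Without S10 the log2 range of Hk3 was 0.99, and 1.02 with TMM scaling.

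The lactate transporters were split in the same libraries. Slc16a1 (ENSRNOG00000019996), which encodes MCT1, a carrier for both uptake and release, had 36.8, 91.2, 71.5, 123, 71.0 and 60.3 FPKM from S10 to S23. Slc16a3, which encodes MCT4, the exporter of glycolytic cells and a HIF target, had 21.9, 21.3, 22.9, 19.1, 39.8 and 37.8 FPKM. MCT4 thus made up 13.4% of their sum in S20 and 38.6% in S23, with 37.3% in S10 and 35.9% in S21. Slc16a1 was highest in S20 and lowest in S10 under all 6 scalings. Without S10 its range was 1.02, and 0.98 with TMM scaling.

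**Figure D4:**
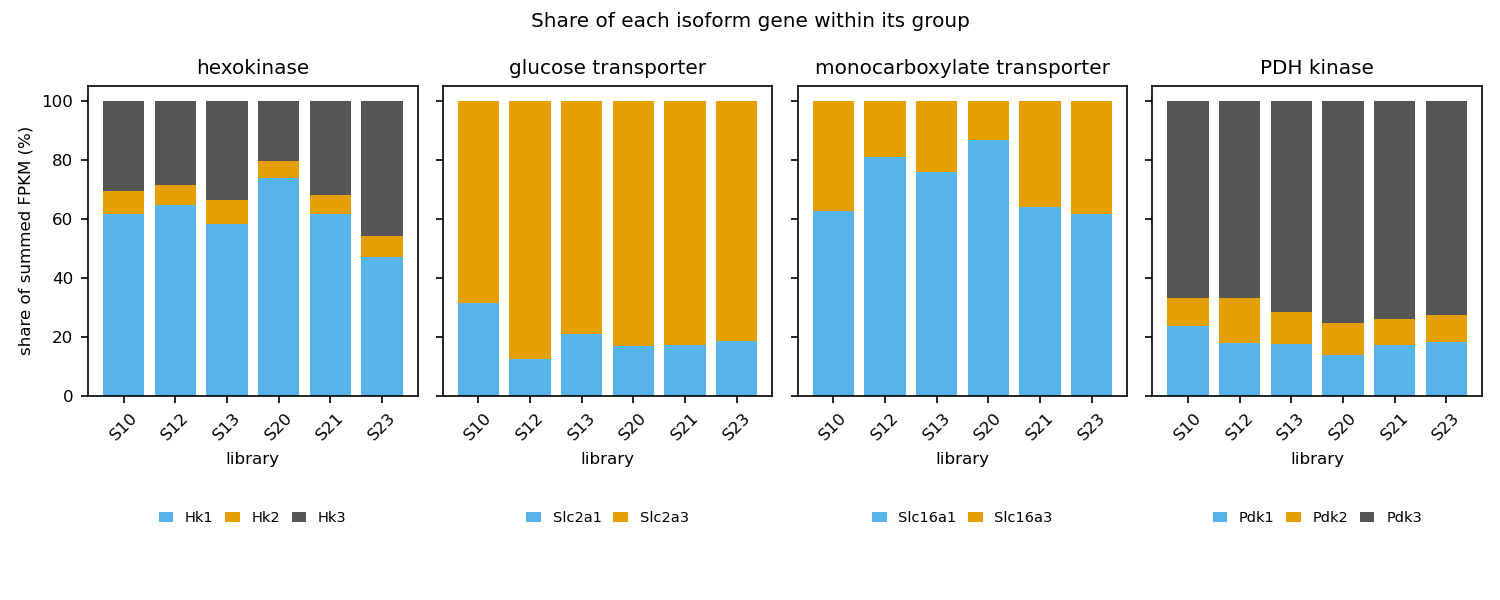
Share of the summed FPKM (percent, bars starting at 0) taken by each isoform gene in each library for hexokinases, glucose transporters, monocarboxylate transporters and pyruvate dehydrogenase (PDH) kinases. S20 has the largest Hk1 and Slc16a1 shares (73.7% and 86.6%), S23 the largest Hk3 and Slc16a3 shares (45.8% and 38.6%), and S10 the largest Slc2a1 share (31.5%).

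Glucose entered the list through Slc2a1 and Slc2a3, which encode the transporters GLUT1 and GLUT3. Slc2a3 (ENSRNOG00000049298), the high-affinity form of neurons and leukocytes, had 4.69, 23.9, 13.1, 17.5, 19.5 and 32.1 FPKM from S10 through S23. Its highest value was 6.84 times its lowest, the largest such ratio among the members in deposited FPKM. With TMM scaling it was 4.64, below the 5.69 of Ldhb. The S10 value rested on 303 counts (exact Poisson interval 4.18 to 5.25 FPKM, counting error only). S10 was below all other libraries by a factor of at least 2.80, and without S10 the log2 range fell from 2.54 to 1.23. Slc2a1, the ubiquitous form, had 2.16, 3.38, 3.50, 3.52, 4.02 and 7.22 FPKM and was also highest in S23 under all 6 scalings. Slc2a3 held 68.5% of their sum in S10 and 79.0% to 87.6% elsewhere.

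The regulatory kinases set the pace of the pathway. Pfkfb3 and Pfkfb4 make fructose-2,6-bisphosphate, the activator of phosphofructokinase. The PDH kinases Pdk1, Pdk2 and Pdk3 inhibit PDH and so limit the oxidation of pyruvate in mitochondria. Pfkfb4 (ENSRNOG00000020656) had 3.37, 12.5, 8.74, 10.8, 10.5 and 17.2 FPKM from S10 through S23. It was lowest in S10 and highest in S23 under all 6 scalings, with log2 ranges of 2.06 in the deposited values and 1.59 with TMM scaling. Without S10 these fell to 0.90 and 0.73, so the range of Pfkfb4 rested on that library. Pfkfb3 ranged from 6.90 FPKM in S10 to 19.4 FPKM in S23. The transcript length implied by its counts and FPKM differed by 24.4% between libraries, against 3.05% to 3.88% for the other 35 members, so its FPKM were not made with 1 fixed length.

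Pdk3 was the main PDH kinase transcript, at 66.9% to 75.5% of the summed FPKM of the 3 genes, with 17.5 FPKM in S10 and 35.3 FPKM in S23. Its range fell from 0.97 to 0.47 with TMM scaling. Pdk1, a HIF target, ranged from 5.61 FPKM in S20 to 8.86 FPKM in S23. Pdk2 was highest in S12 (6.09 FPKM) and lowest in S10 (2.47 FPKM) under all 6 scalings. Pdk4, which is not a member, reached 2.01 FPKM in S12 but had a median of only 0.360 FPKM.

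Bpgm and Pfkm were the 2 enzymes lowest in S23 in the deposited values, and both were highest in S20. With TMM scaling 4 enzymes were lowest in S23. Bpgm encodes bisphosphoglycerate mutase, which makes the 2,3-bisphosphoglycerate that lowers the oxygen affinity of haemoglobin in red cells. Bpgm (ENSRNOG00000010133) had the highest median of all 36 members, 488 FPKM. It had 511, 500, 476, 533, 339 and 228 FPKM from S10 through S23. S23 was lowest under all 6 scalings, while the highest library was S10 or S20 depending on the scaling. The Bpgm to Pgam1 ratio within a library was 5.01, 3.67, 3.21, 4.35, 2.48 and 1.07 from S10 through S23. Without S23 the log2 range of Bpgm was 0.65, against 1.22 with it.

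Marker genes of marrow cells and some of the members had their highest or lowest values in the same libraries. The summed FPKM of 14 neutrophil markers, led by S100a9 and S100a8 (the calprotectin subunits), was 18204 in S20 and 76284 in S23, and 12 of the 13 expressed markers were highest in S23. Ltf had at most 5 counts in any library. The summed FPKM of the 12 erythroid markers with a row, led by Hba-a1 and Hba-a2, was 160133 in S23 and 434808 in S10, with 9 of 12 lowest in S23 and 7 of 12 highest in S20. With TMM scaling the mean deviation of the neutrophil list was 0.55 in S23 and -0.66 in S20, and that of the erythroid list was -0.83 in S23 and 0.31 in S20. Other lists shared these libraries. For 9 monocyte and macrophage markers the summed FPKM was lowest in S20 (4213) and highest in S23 (15848). Of these 9, however, 6 were highest in S12 and 2 in S23. Their mean deviation with TMM scaling was -0.28 in S20, -0.12 in S23 and highest in S12 (0.24). The summed FPKM of 8 proliferation markers was 400 in S10 and 740 in S20. Of these markers 7 were highest in S20 and 6 lowest in S10. Their mean deviation with TMM scaling was 0.38 in S20, -0.09 in S10 and lowest in S23 (-0.24). The summed FPKM of 8 osteoclast markers was highest in S23 (819). Of the 6 expressed ones 4 were highest there, but 0 with TMM scaling. The contribution of any of these cells in the levels of Hk3, Slc2a3, Pfkfb4, Bpgm, Hk1 and Slc16a1 was not tested. The markers of a list did not all follow its mean. Of the 13 expressed neutrophil markers 7 were lowest in S10 in the deposited values, as Slc2a3 and Pfkfb4 were, and with TMM scaling Mmp9, Cxcr2, Csf3r and Itgam still were. Cxcr2, a chemokine receptor of neutrophils, had 16.7 TMM-scaled FPKM in S10 and 30.5 to 69.7 in the other libraries, while S100a8 had 22673 in S10 and was lowest in S20 (3812). The mean deviation of the erythroid list in S10 with TMM scaling was 0.26, and Hk1 and Slc16a1 were lowest in that library.

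**Figure D5:**
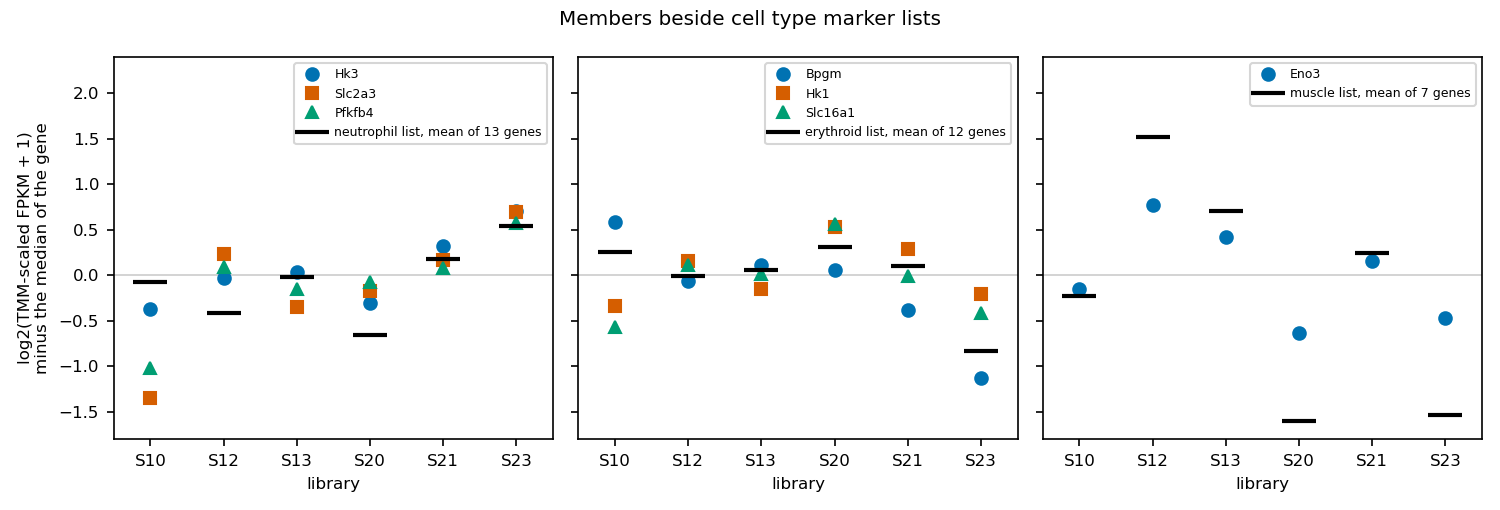
Deviation of log2(TMM-scaled FPKM + 1) from the median of each gene in the 6 libraries for members (symbols) beside the mean deviation of the expressed genes of a marker list (black bars): neutrophil with 13 genes, erythroid with 12 and muscle with 7. Hk3, Slc2a3 and Pfkfb4 are highest in S23 with the neutrophil list, Bpgm is lowest there with the erythroid list, and Eno3 is highest in S12 with the muscle list.

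Eno3 and Ldhb are minor isoforms whose range fell when 1 library was left out. Eno3 (ENSRNOG00000004078), the enolase of muscle, had 2.29, 7.70, 4.87, 2.15, 3.93 and 2.50 FPKM from S10 through S23. S12 was highest under all 6 scalings, and Eno3 held 2.62% of the enolase sum there and 0.624% to 1.72% elsewhere. Without S12 its log2 range was 0.90, against 1.47 with it, and with TMM scaling 1.06 against 1.41. The summed FPKM of the 9 muscle markers with a row, of 12 listed and led by Mylpf and Tnnt3 (a myosin light chain and a troponin), was 14.2 in S20 and 164 in S12, all 7 expressed markers were highest in S12, and Mb had 0 counts in S23, which allows up to 3. High sums in S12 were not limited to muscle: those of the osteoblast, chondrocyte, adipocyte and B cell lists were also highest there (1967, 287, 853 and 176 FPKM). The part of muscle RNA in the Eno3 level was not tested. Pfkm, the muscle-type phosphofructokinase, was highest in S20 (13.7 FPKM) and had 11.6 FPKM in S12, so it did not share the order of Eno3. Aldoc, the brain-type aldolase, stayed at 1.70 to 3.07 FPKM, beside a median of 289 FPKM for Aldoa.

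Ldhb (ENSRNOG00000013000), the subunit of lactate dehydrogenase that favours pyruvate, had 12.3, 20.2, 22.1, 20.6, 3.91 and 16.9 FPKM from S10 through S23. S21 lay at least 3.14-fold below every other library. Its 340 counts there gave an exact Poisson interval of 3.50 to 4.35 FPKM, while the next lowest library, S10, had an interval of 11.4 to 13.2 FPKM. Of all expressed genes, 3.85% met the rule of 1 library at least 3-fold below the rest, and 0.103% (12 genes) met it with S21. The rule also admits ties at 0 FPKM, as for Efcab9 with 0 in both S20 and S21, so these shares are upper limits. Ldhb was the only member with a gap of at least 3-fold, and it was lowest in S21 under all 6 scalings. Without S21 its log2 range fell from 2.23 to 0.80, and with TMM scaling from 2.25 to 0.54. Ldha was not low in S21 (448 FPKM), so the Ldhb share of the lactate dehydrogenase sum was 0.865% there and 3.13% to 6.20% elsewhere. The summed FPKM of 6 B cell markers, led by Cd79b and Igll1, was also lowest in S21 (57.3, against 86.2 to 176 in the others), though 4 of the 6 single markers were lowest in S23, where Ldhb was not. The osteoclast sum was lowest in S21 as well (422, against 663 to 819 in the others). Of its 6 expressed markers 3 were lowest in S21 and 3 in S10. The part of either list in the Ldhb level was not tested.

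None of the HIF genes among the members but Bnip3 reached a range of 1 in either the deposited or the TMM-scaled values. Hif1a (ENSRNOG00000008292), the oxygen-regulated subunit, had 10.2, 17.7, 13.7, 15.7, 13.5 and 18.0 FPKM from S10 through S23. With TMM scaling its values lay between 13.6 and 16.4 FPKM, a log2 range of 0.25, at percentile 3.80 of all expressed genes. Egln1, which encodes the main prolyl hydroxylase PHD2, ranged from 17.3 to 26.8 FPKM, and from 20.9 to 24.8 FPKM with TMM scaling. Egln3, which encodes PHD3 and is itself a HIF target, ranged from 4.99 FPKM in S10 to 7.21 FPKM in S21. Vegfa, the growth factor for blood vessels, ranged from 4.48 FPKM in S10 to 7.69 FPKM in S23, and from 5.80 to 7.22 FPKM with TMM scaling. Ndrg1, a stress-responsive HIF target, ranged from 14.1 to 22.2 FPKM.

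The mean deviation of the 7 expressed HIF genes from their medians had a range of 0.35 over the libraries. The same range was 0.54 for enzymes, 1.34 for transporters and 1.10 for regulatory kinases. With TMM scaling the ranges were 0.27 for HIF genes and 0.27 for enzymes, 0.85 for transporters and 0.61 for regulatory kinases. With median-ratio scaling HIF genes had 0.27 and enzymes 0.26, so the order of these groups depends on the scaling. Ankrd37, a HIF target of ankyrin-repeat type, ranged from 1.23 FPKM (S12) to 2.20 FPKM (S23). Adm, which encodes the vasodilator adrenomedullin, was the only member with a median under 1 FPKM (0.942), on 39 counts in S10 at the lowest, and had 1.53 FPKM in S13.

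Bnip3 is a mitophagy receptor and HIF target. It had 10.8, 10.5, 6.75, 5.32, 5.80 and 6.81 FPKM from S10 through S23. S10 and S12 stood above the other 4 libraries, and the exact Poisson intervals of 10.1 to 11.6 FPKM in S10 and 9.75 to 11.2 FPKM in S12 did not meet those of the others, the highest of which ended at 7.40 FPKM. These intervals cover counting error within a library, not the spread between samples, so they do not test a difference between libraries. With TMM scaling S10 had 14.5 FPKM and S20 had 4.72 FPKM, a log2 range of 1.44, and without S10 that range was 0.82. Its relative Bnip3l, which removes mitochondria from maturing red cells and was not a member, was far higher, with 112 FPKM in S23 and 201 FPKM in S20.

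Other genes of the pathway were taken from lists kept apart from the members. Of 35 further glycolytic and linked genes with a row, 27 were expressed. Of these 12 had a range of at least 1, against the 36.6% of all expressed genes given above. The count was 8 of 27 with TMM scaling, against 29.6%, a share near the background. The pentose phosphate enzymes Taldo1 and Tkt were the most abundant, with medians of 447 and 394 FPKM, and both were highest in S23 (629 and 613 FPKM). Bsg, the partner protein of the lactate transporters, ranged from 117 to 156 FPKM, and Mpc2, a subunit of the mitochondrial pyruvate carrier, from 56.2 to 117 FPKM. The muscle genes Pgam2 and Pygm, a mutase and a glycogen phosphorylase, were highest in S12 (6.42 and 6.28 FPKM), as Eno3 was. Slc2a6, of the glucose transporter family, ranged from 4.12 FPKM in S10 to 14.1 FPKM in S23. Ldhc, known from testis, was listed at 7.15 FPKM in S20 to 23.7 FPKM in S23, and the sources used here do not say how reads that resemble Ldha were divided. Slc2a2, a glucose transporter of liver and pancreas, had 0 counts in all 6 libraries, which allows up to 3 in each.

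Of 8 further HIF system genes, 6 were expressed and 3 had a range of at least 1, against 36.6% of all expressed genes. The count was 2 with TMM scaling, against 29.6%. Epas1, which encodes HIF-2 alpha, ranged from 4.73 FPKM in S10 to 16.5 FPKM in S12, and Arnt, the shared beta subunit, from 3.02 FPKM in S10 to 13.4 FPKM in S20. Their ranges with TMM scaling were 1.07 and 1.35. Cited2, a brake on HIF activity, had a median of 54.5 FPKM, and Egln2, which encodes PHD1, one of 30.2 FPKM. Hif1an, which encodes the asparagine hydroxylase that curbs HIF activity, ranged from 4.07 FPKM in S10 to 7.46 FPKM in S12. Hif3a had at most 9 counts in a library.

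Of 24 further HIF targets, 21 were expressed and 11 had a range of at least 1, and 11 also with TMM scaling. Among all expressed genes the shares were 36.6% and 29.6%. Bnip3l, Cxcr4, Tfrc and Hmox1 had the highest medians (154, 138, 135 and 132 FPKM), and Tfrc, the transferrin receptor, is also in the erythroid list. Stc2, a secreted glycoprotein, had the widest range, from 0.793 FPKM in S10 to 25.8 FPKM in S20. Nos2, the inducible nitric oxide synthase, ranged from 1.38 FPKM in S10 to 10.2 FPKM in S23, and Angptl4, a lipase inhibitor, from 0.937 FPKM in S10 to 5.52 FPKM in S12. Epo, the red cell hormone made mainly in kidney, had 0 counts in all 6 libraries, which allows up to 3 counts in each.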

How the data were processed

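Counts and FPKM of 6 RNA-seq libraries were taken from 1 deposited table. RNA came, per the labels' protocols, from an RNeasy kit and was made into libraries with a SMARTER mRNA-Seq kit. Deposited counts are whole and not normalized. The FPKM values were made by the authors, per the file headers, and summed to 811992 to 1047309 per library. For the aligner and counter, the sources used here give no name. The submitters' processing notes name the mouse builds GRCm38 and mm10 although genes carry rat Ensembl IDs. The build is thus unsettled, and no coordinates are given for the measured rows. Promoter coordinates are those of RefSeq (GRCr8).

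Of 30610 rows, 10 held no values and were left out, and 22050 were annotated genes. The other 8550 rows carry no gene name, took 2.00% to 2.92% of the counts, and entered only totals. All libraries stayed without a group, so no test was run. Members were found by name. A gene was called expressed from a median of 1 FPKM upward, and log values are log2(FPKM + 1), which understates folds of low genes. Alternatives were TMM factors (edgeR 4.0.16) and median-ratio factors (DESeq2 1.42.0) from the counts, applied to FPKM, common sums with and without the 4 globin rows, removal of each library's median shift in 20 bins of implied length, a pseudocount of 0.1, other FPKM minimums, counts in place of FPKM for isoform shares, and leaving out each library. The range calculation and length correction were tested on simulated data. All 36 members were named. Of each further pathway list, the 4 genes with the highest medians and the 4 with the widest ranges were named. Of the neutrophil, erythroid, muscle, osteoblast and B cell marker lists the 2 highest were named. The monocyte and macrophage, proliferation, osteoclast, chondrocyte and adipocyte lists were brought in after their values were seen, without named genes. Other non-members named (Pdk4, Ltf, Mmp9, Cxcr2, Csf3r, Itgam, Mb, Slc2a2, Hif3a, Epo, Spsb2) were chosen after their values were seen, as were the ratios and the 4 printed promoters. The members and lists were chosen with earlier results of these data known.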

Additional observations from a re-analysis of the deposited data

How the results depend on the processing

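Of 101 alternative values computed for 19 results, 81 stayed near the main value by a wide rule and 20 moved. Values other than counts were called near within a standard deviation over members or libraries, and counts within a fixed fold. Called near were thus 12 members (TMM) and 24 (common sum) with a range of at least 1, beside 17. So was a median range of 0.71 without S10, beside 0.97. S10 decided most of the counts on spread: 17 members had a range of at least 1, and leaving out each library in turn gave 9 (without S10) to 17. S10 was lowest for 23 members, but for 11 with TMM, 10 with median-ratio scaling and 13 after length correction. The range of the role scores moved with scaling too. For enzymes, 0.54 became 0.27 with TMM, 0.26 with median ratio, 0.86 with a common sum and 0.26 after length correction. For transporters, 1.34 became 0.85 with TMM and 0.85 with median ratio, and for regulatory kinases 1.10 became 0.61 and 0.62. For HIF genes, 0.35 became 0.66 with a common sum, 0.49 with a common sum without globins and 0.15 after length correction. Counts in place of FPKM moved 5 of 10 median isoform shares: Pfkp from 21.1% to 18.0%, Slc2a3 from 82.3% to 72.7%, Pfkfb4 from 43.0% to 29.2%, Pdk3 from 72.3% to 78.9% and Egln3 (of Egln1 and Egln3) from 22.1% to 54.5%, since counts are not divided by length. The order of Egln1 and Egln3 thus depends on the unit. The cause of the other moves was not tested. The number of expressed members was 34 to 36 under every alternative run. Depth limited Adm most: on 39 counts in S10, counting error alone was 32.8% of its value.

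No paired analysis was possible because the labels put no library in a group.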

Other observations

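Ldhb was 1 of 12 expressed genes that met the rule of S21 at least 3-fold below every other library. The others were Dsg3, Efcab9, Lef1, Stfa2, Stfa2l1, Vpreb2 and 5 loci with clone or LOC names. Efcab9 met the rule only as a tie, with 0 FPKM in both S20 and S21. The 3 described next were chosen after the values were seen, and no common theme was tested. Lef1, a transcription factor of lymphocytes, had 1.06 FPKM in S21 and 3.35 to 10.7 FPKM elsewhere. Vpreb2, known from B cell precursors, had 4.75 FPKM in S21 and 20.4 to 26.5 FPKM elsewhere. Stfa2, a cystatin-type protease inhibitor gene, had 47.2 FPKM in S21 and 203 to 654 FPKM elsewhere. Whether these genes and Ldhb were low in the same cells was not tested.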
